A study of Homo sapiens with 6 samples.

Results

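The BCL2 family apoptosis regulators described here were the 10 genes BBC3, PMAIP1, BCL2L11, BID, BAX, BAK1, BCL2, BCL2L1, MCL1 and BCL2A1, taken by gene symbol from the 54308 genes of the deposited expression table. Of that table, 19306 genes had enough values to be tested, and all 10 members were among them with a value in every library. RNA came from 143B cells, a human osteosarcoma (OS) line derived from HOS cells. The vector control (VC) group held 3 libraries of cells transfected with the control plasmid, and the CNTNAP4 knockout (KO) group held 3 libraries of cells transfected with a CRISPR/Cas9 plasmid against CNTNAP4, which encodes a receptor of the neurexin superfamily. The labels give 48 h of transfection for both groups, while the methods describe single-cell colonies sorted after transfection. Which colony each library came from is not given in the sources used here, so a difference between KO and VC cannot be told apart from a difference between clones. The libraries are labelled as biological replicates, and if they were separate RNA samples of the same clone the p-values measure only the spread between those samples.

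Members of the BCL2 family decide whether the outer mitochondrial membrane is opened in the intrinsic pathway of apoptosis. BAX and BAK1 are the effectors that form pores, BCL2, BCL2L1 (BCL-XL), MCL1 and BCL2A1 (A1/BFL-1) hold the effectors in check, and the BH3-only proteins BBC3 (PUMA), PMAIP1 (NOXA), BCL2L11 (BIM) and BID bind the inhibitors, the effectors or both to promote death. In sarcoma cells, as in other tumor cells, the balance between these groups is known to set how readily chemotherapy starts apoptosis, and the inhibitors are the targets of BH3-mimetic drugs. RNA levels give only part of that balance, since PMAIP1 and MCL1 proteins turn over quickly, BID is activated by cleavage, and BCL2L1, MCL1 and BCL2L11 make splice forms that a gene-level table adds together.

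Promoter sequences are shown for BBC3 and BCL2A1, the members with the largest rises, and for BAX, which had the most motif matches. RefSeq promoter windows were found for 9 of the 10 members, 14 windows in all, and the 250 bases before each annotated start were searched on both strands for the cAMP response element TGACGTCA, the C/EBP-ATF element TTGCATCA, the AP-1 site TGACTCA, the E-box CACGTG and an NF-kB site. Capitals mark the matches, which did not overlap in any window. Coordinates are those of build GRCh38.p14, and the submitters' processing notes name GRCh38.p13 for the reads. The BBC3 window (chr19:47232668-47232917, minus strand) held an E-box that began 232 bases before the start and an AP-1 site that began 113 bases before it.
BBC3: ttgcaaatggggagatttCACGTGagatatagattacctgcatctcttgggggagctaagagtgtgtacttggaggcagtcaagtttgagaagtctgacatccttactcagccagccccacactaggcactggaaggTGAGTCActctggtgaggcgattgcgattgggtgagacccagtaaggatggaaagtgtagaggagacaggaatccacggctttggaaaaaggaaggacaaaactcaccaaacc
The BCL2A1 window (chr15:79971197-79971446, minus strand) held a C/EBP-ATF element that began 63 bases before the start.
BCL2A1: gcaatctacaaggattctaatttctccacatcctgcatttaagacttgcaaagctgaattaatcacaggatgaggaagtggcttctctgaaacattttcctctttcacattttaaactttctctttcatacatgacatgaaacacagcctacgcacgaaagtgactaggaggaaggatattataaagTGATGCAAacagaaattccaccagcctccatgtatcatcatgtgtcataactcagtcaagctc
The BAX window (chr19:48954625-48954874, plus strand) held 4 E-boxes, which began 138, 93, 45 and 14 bases before the start.
BAX: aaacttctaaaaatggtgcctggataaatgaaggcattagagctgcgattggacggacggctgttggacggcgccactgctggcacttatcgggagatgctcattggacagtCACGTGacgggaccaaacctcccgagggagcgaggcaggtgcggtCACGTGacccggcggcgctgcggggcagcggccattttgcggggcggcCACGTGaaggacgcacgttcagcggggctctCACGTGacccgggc
Among all 35116 RefSeq windows of the same length, the C/EBP-ATF element was present in 0.772%, the AP-1 site in 4.20% and the E-box in 6.34%. The only other match among the members was 1 E-box, shared by 2 of the 5 BID windows. The cAMP response element (1.65% of all windows) and the NF-kB site (0.179%) were not found in the 14 windows. For NF-kB only 1 exact form of 10 bases was searched, so other forms of the site could be present. These matches describe letters in a window and do not show that a factor was bound.

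For CNTNAP4, the targeted gene, the table lists a single number, -7.18 on the log2 scale in VC replicate 3, so no fold change could be computed and the labels are hardly checked by it. Between 20333 and 21041 genes had a value in each library, and over these genes the log2 signals had nearly the same distribution in all 6 libraries, which leaves the read depth of each library unknown. Over the tested genes the library medians were 1.15 to 1.20 in VC and 1.06 to 1.13 in KO. Of 6 osteosarcoma and mesenchymal markers, all had a value in every library. VIM, SPARC, COL1A1 and RUNX2 were above the median signal and ALPL and COL1A2 below it, and in KO COL1A1, SPARC and ALPL were higher and COL1A2 was lower at an adjusted p under 0.05 in limma. Of 6 markers of other cell types, the epithelial genes KRT18 and EPCAM were above the median signal, and EPCAM was lower in KO (log2 fold change -0.67, limma adjusted p = 0.0157). PTPRC and PECAM1 had mean log2 signals of -4.62 and -5.49 in VC, and CD14 and CDH1 lacked a value in at least 1 library. The log2 of the summed linear signals of the first list was 10.4 to 10.6 in VC and 10.7 to 11.0 in KO. That of the second list was 8.93 to 9.07 in VC and 8.64 to 8.88 in KO. The first sum lay close to VIM alone (mean 10.4 in VC and 10.8 in KO) and the second to KRT18 alone (9.01 and 8.75). The part of these shifts in the results was not tested.

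To assess the family as a whole, KO was compared with VC by limma over all tested genes, with p-values adjusted by the Benjamini-Hochberg method. At an adjusted p under 0.05, 5 members were higher in KO (BBC3, BCL2A1, PMAIP1, BID and MCL1), 2 were lower (BCL2 and BCL2L11), and BAX, BAK1 and BCL2L1 did not pass. Leaving out any 1 VC replicate lowered these counts to 2 higher and 0 lower, and leaving out KO replicate 1, 2 or 3 gave 4, 3 or 3 higher and 3, 2 or 0 lower. Over all tested genes 32.9% passed, 13.1% higher and 19.8% lower in KO. With each library centred on its median, 50.6% of the genes that passed were higher in KO, against 39.8% as deposited. Among the members that passed, 3 BH3-only genes and 2 inhibitors were higher and 1 of each was lower, and neither effector passed. Whether the changes follow the split into pro- and anti-apoptotic members was not tested. The median log2 fold change of the 10 members was 0.043, against -0.13 over all tested genes. In each of the 10 members the 3 KO values lay on one side of the 3 VC values, as they did in 59.3% of the genes with a value in every library. For a single gene an exact two-sided permutation test over these 6 libraries cannot go below p = 0.1.

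**Figure D1:**
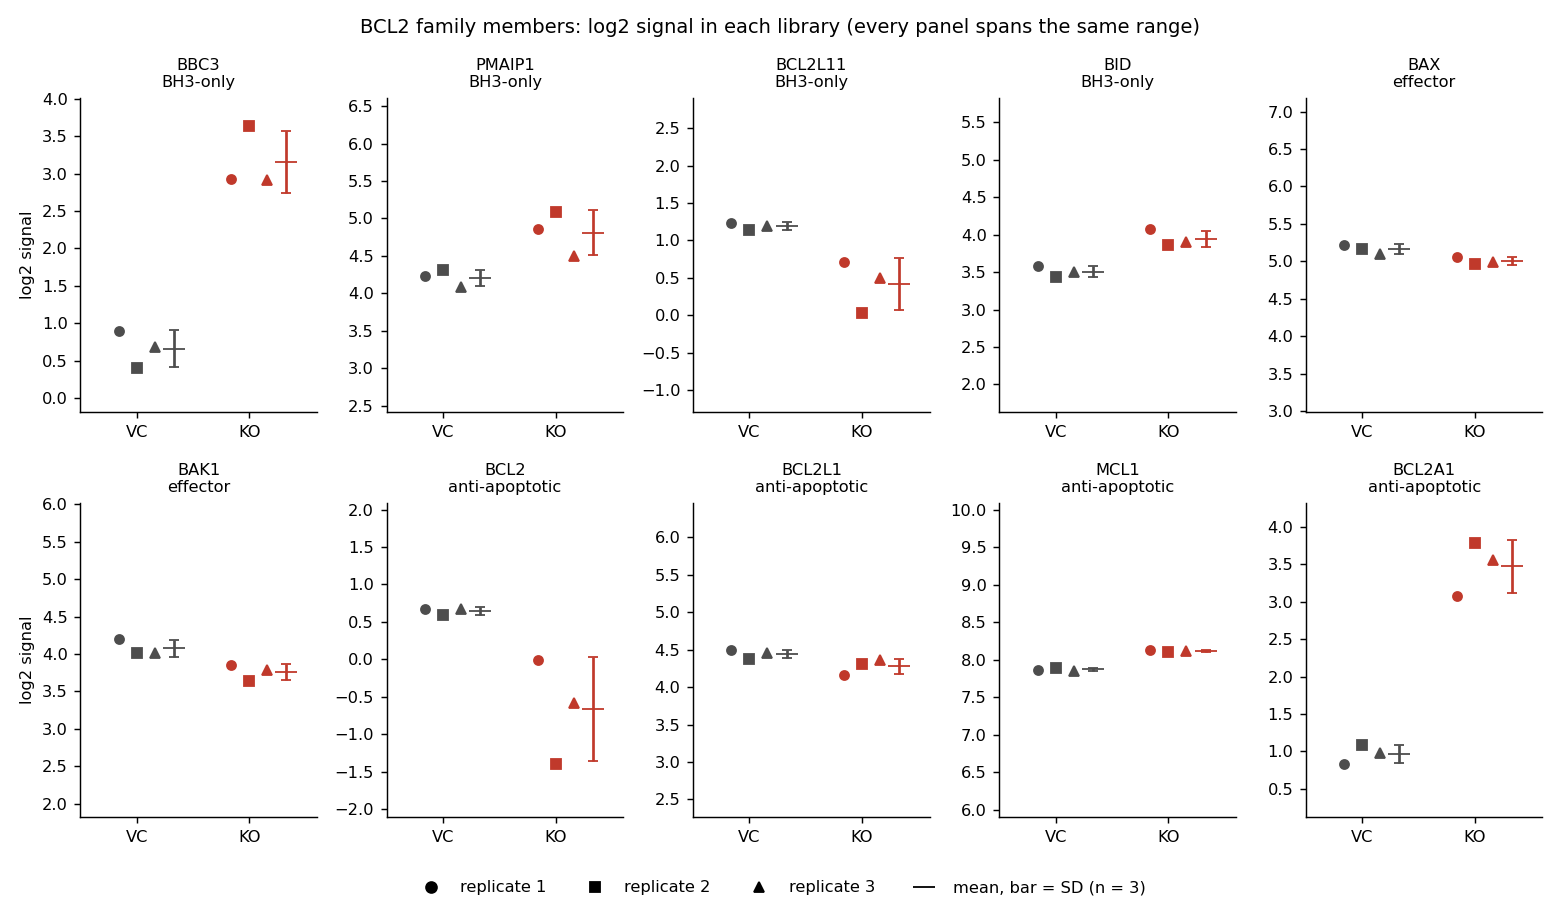
Log2 signal (vertical axis) of each member in the VC (gray) and KO (red) libraries, with a marker for each replicate and a bar for the mean and SD (n = 3); every panel spans the same range. The KO libraries of BBC3 and BCL2A1 stand about 2 log2 units above the highest VC library, while those of MCL1, BAX and BCL2L1 lie close to their VC libraries.

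Among the BH3-only genes, BBC3 on chromosome 19, which encodes a BH3-only protein that binds all of the inhibitors, had the largest rise. Across VC replicates 1 to 3 its log2 signals were 0.90, 0.40 and 0.69, against 2.93, 3.63 and 2.91 across KO replicates 1 to 3. The lowest KO library lay 2.01 above the highest VC library. KO exceeded VC by 2.49 on the log2 scale, with a standard error of 0.25 and an adjusted p of 0.0079 in limma, which is 5.63-fold with a 95% interval of 3.67 to 8.66. The rise of BBC3 was number 111 from the top among the 19306 tested genes. When libraries were left out one at a time, the adjusted p of BBC3 stayed between 0.00651 and 0.0412.

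PMAIP1 on chromosome 18, whose product binds MCL1 and BCL2A1, showed log2 signals of 4.23, 4.31 and 4.09 across VC replicates 1 to 3, against 4.85, 5.09 and 4.49 across KO replicates 1 to 3. KO replicate 3 lay only 0.19 above the highest VC library. PMAIP1 rose by 0.60 on the log2 scale, with a standard error of 0.17 and an adjusted p of 0.0461 in limma, or 1.52-fold with a 95% interval of 1.13 to 2.05. Leaving out KO replicate 3 gave an adjusted p of 0.0408, while leaving out KO replicate 1, KO replicate 2 or any VC replicate gave 0.0802 to 0.129, and a fit without variance moderation gave 0.0812.

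BID on chromosome 22, whose product links death receptors to the mitochondria after cleavage by caspase-8, showed log2 signals of 3.58, 3.43 and 3.51 across VC replicates 1 to 3, against 4.07, 3.87 and 3.90 across KO replicates 1 to 3. The KO libraries were higher by a similar amount, and KO replicate 1 was the highest. BID rose by 0.44 on the log2 scale, with a standard error of 0.089 and an adjusted p of 0.0226 in limma, or 1.35-fold with a 95% interval of 1.16 to 1.58. Leaving out KO replicate 1 or KO replicate 2 gave an adjusted p of 0.019 or 0.0345, and leaving out KO replicate 3 or any VC replicate gave 0.0632 to 0.0784. Among the other 238 genes of chromosome 22 in the upper 50% of mean signal the median log2 fold change was 0.30, whereas on the other chromosomes it was -0.097, and 64.3% of these chromosome 22 genes had a lower log2 fold change than BID. The part of the chromosome in this rise was not tested.

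BCL2L11 on chromosome 2, which encodes BIM, a BH3-only protein that ERK marks for degradation by phosphorylation, was the BH3-only member that fell. Across VC replicates 1 to 3 its log2 signals were 1.24, 1.14 and 1.20, against 0.71, 0.032 and 0.50 across KO replicates 1 to 3. The VC libraries were tightly grouped, and KO replicate 2 was the lowest of the 6. BCL2L11 fell by 0.78 on the log2 scale, with a standard error of 0.18 and an adjusted p of 0.0312 in limma, to 0.583 of its VC signal with a 95% interval of 0.423 to 0.805. Leaving out KO replicate 1 or KO replicate 2 gave an adjusted p of 0.0143 or 0.0253, leaving out KO replicate 3 or any VC replicate gave 0.0761 to 0.092, and a fit without variance moderation gave 0.0621. The change of BCL2L11 was smaller, -0.49 on the log2 scale, after 1 was added to its linear signals.

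Neither effector passed the test. BAK1 on chromosome 6, which resides in the outer mitochondrial membrane, showed log2 signals of 4.20, 4.01 and 4.01 across VC replicates 1 to 3, against 3.85, 3.64 and 3.79 across KO replicates 1 to 3. The KO libraries were all below the VC libraries (log2 fold change -0.31, 95% interval -0.56 to -0.065, limma adjusted p = 0.0603). BAK1 passed without KO replicate 1 (limma adjusted p = 0.0457), not without any other single library (0.1 to 0.164), and it passed with 1 added to the linear signal (0.0321), with trend and robust moderation (0.0225) and among genes in the upper 50% of mean signal (0.0186). BAX on chromosome 19, which moves from the cytosol to the membrane when activated, showed log2 signals of 5.23, 5.17 and 5.09 across VC replicates 1 to 3, against 5.06, 4.96 and 4.99 across KO replicates 1 to 3. The highest KO library of BAX was 0.035 below the lowest VC library. BAX had a log2 fold change of -0.16, with a 95% interval of -0.34 to 0.023 and a limma adjusted p of 0.142, which became 0.0415 with 1 added to the linear signal. At an unadjusted p under 0.05 in limma 1 of the 2 effectors, BAK1, passed, as did 47.9% of all tested genes.

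**Figure D2:**
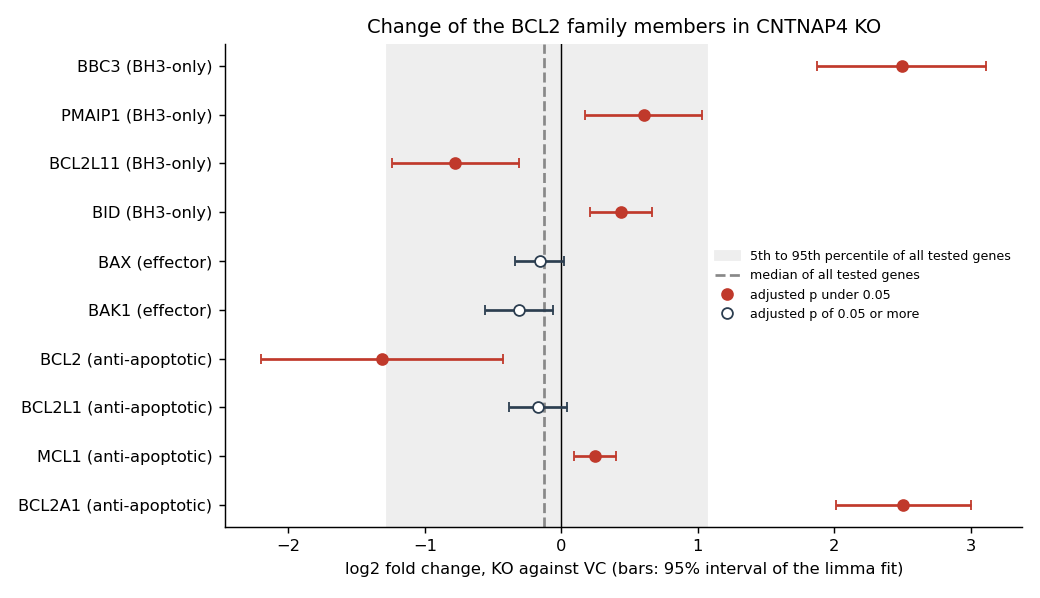
Log2 fold change of KO against VC (horizontal axis) for each member, with the 95% interval of the limma fit over 3 VC and 3 KO libraries; filled red points had an adjusted p under 0.05, the gray band spans the 5th to the 95th percentile of all tested genes and the dashed line is their median (-0.13). BBC3 and BCL2A1 lie to the right of the band, BCL2 (-1.31) just past its left edge (-1.28) and the other members inside it.

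Among the inhibitors, BCL2A1 on chromosome 15 had the largest rise of the family. BCL2A1 is best known from blood cells, where NF-kB induces it. Across VC replicates 1 to 3 its log2 signals were 0.84, 1.08 and 0.98, against 3.08, 3.78 and 3.56 across KO replicates 1 to 3. Again no library of one group came near the other, and the gap between them was 2.0 log2 units. The log2 fold change of 2.51 had a standard error of 0.20 and an adjusted p of 0.00597 in limma, and corresponds to 5.69-fold with a 95% interval of 4.03 to 8.02. This was number 108 from the top among all tested genes. When libraries were left out one at a time, the adjusted p of BCL2A1 stayed between 0.00362 and 0.036.

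BCL2 on chromosome 18, the founding member of the family, had the largest fall. Across VC replicates 1 to 3 its log2 signals were 0.68, 0.59 and 0.67, against -0.016, -1.40 and -0.59 across KO replicates 1 to 3. The SD was 0.049 in VC and 0.69 in KO, so the KO libraries agreed on the direction and differed widely in its size. BCL2 fell by 1.31 on the log2 scale, with a standard error of 0.35 and an adjusted p of 0.0412 in limma, to 0.402 of its VC signal with a 95% interval of 0.218 to 0.744. This was number 898 from the bottom among all tested genes. Leaving out KO replicate 1 or KO replicate 2 gave an adjusted p of 0.0122 or 0.0364, leaving out KO replicate 3 or any VC replicate gave 0.0962 to 0.107, and a fit without variance moderation gave 0.0815. The change of BCL2 was smaller, -0.63 on the log2 scale, after 1 was added to its linear signals. BCL2 and PMAIP1 lie on the same chromosome and moved in opposite directions. BCL2 itself was not in the upper 50% of mean signal. Among the 126 genes of chromosome 18 that were, the median log2 fold change was -0.096, and 0.794% had a lower one than BCL2. Genes of chromosome 18 with a signal as low as that of BCL2 were not compared.

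MCL1 on chromosome 1, a short-lived inhibitor that many tumor cells depend on, showed a small rise with little spread. Across VC replicates 1 to 3 its log2 signals were 7.87, 7.90 and 7.85, against 8.14, 8.10 and 8.12 across KO replicates 1 to 3. The SD was 0.023 in VC and 0.017 in KO, the smallest of the family in both groups. MCL1 rose by 0.25 on the log2 scale, with a standard error of 0.061 and an adjusted p of 0.0346 in limma, or 1.19-fold with a 95% interval of 1.07 to 1.32. Leaving out KO replicate 1 gave an adjusted p of 0.0314, and leaving out any other single library gave 0.0529 to 0.124.

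BCL2L1 on chromosome 20, whose main product BCL-XL protects many solid tumor cells, showed log2 signals of 4.49, 4.38 and 4.46 across VC replicates 1 to 3, against 4.16, 4.31 and 4.36 across KO replicates 1 to 3. KO replicate 3 was only 0.021 below VC replicate 2. BCL2L1 had a log2 fold change of -0.17, with a 95% interval of -0.38 to 0.042 and a limma adjusted p of 0.169, and 0.177 to 0.358 when libraries were left out one at a time. The median log2 fold change of the other 285 chromosome 20 genes in the upper 50% of mean signal was -0.25, and 55.8% of them had a lower one than BCL2L1.

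**Figure D3:**
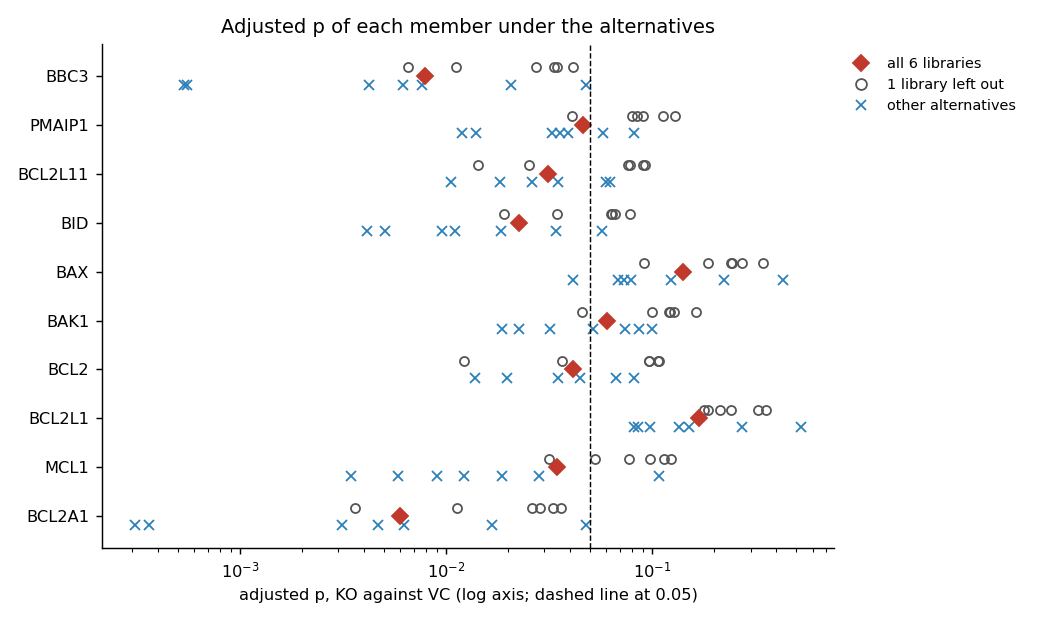
Adjusted p of each member (horizontal log axis, dashed line at 0.05) with all 6 libraries (red diamonds), with 1 library left out (open circles) and under the other alternatives (blue crosses). BBC3 and BCL2A1 stay left of the line throughout, and the other members that passed have marks on both sides of it.

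The members differed in which KO library moved farthest from the VC mean. KO replicate 2 was the farthest in 7 of the 10 members, and KO replicate 1 in BID, BCL2L1 and MCL1. Among all genes that passed the test with a value in every library, KO replicate 2 was the farthest in 75.4%. That set leaves out BAX, BAK1 and BCL2L1, which did not pass. The SD was larger in KO than in VC in 7 members, and in 70.2% of all genes with a value in every library.

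Differences between members within a library were then compared for a few pairs, since BH3-only proteins and effectors act by binding inhibitors. No pair held BBC3, the BH3-only gene with the largest rise, or BID, so the pairs do not cover the whole balance. The linear unit is not given, so the level of such a difference may also depend on gene length. Only its change between the groups is therefore read, and these changes are descriptions without a test. For PMAIP1 against its partner MCL1, the difference of log2 signals was -3.64, -3.59 and -3.76 across VC replicates 1 to 3, against -3.28, -3.02 and -3.62 across KO replicates 1 to 3. The groups overlapped, with KO replicate 3 within the VC range, and the change of 0.36 became 0.21 without KO replicate 2. For PMAIP1 against BCL2A1, its other partner, the mean difference was 3.24 ± 0.14 in VC and 1.34 ± 0.42 in KO (SD, n = 3), a change of -1.90. For BCL2L11 against BCL2L1 the mean went from -3.25 ± 0.012 to -3.86 ± 0.41 (SD, n = 3), a change of -0.61, which became -0.40 without KO replicate 2. The difference between BAX and BCL2 was larger in every KO library and went from 4.52 ± 0.084 to 5.67 ± 0.65 (SD, n = 3), a change of 1.15. For BAK1 against MCL1 the mean went from -3.80 ± 0.12 to -4.36 ± 0.094 (SD, n = 3), a change of -0.56. In every KO library BCL2 was thus lower relative to BAX, and BCL2L11 lower relative to BCL2L1, than in any VC library. BCL2A1 was likewise higher relative to PMAIP1, and MCL1 higher relative to BAK1. The separation of BAK1 and MCL1 follows from the single genes, since all KO values of BAK1 were lower and all those of MCL1 higher than in VC. How often other gene pairs separate in this way was not computed.

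**Figure D4:**
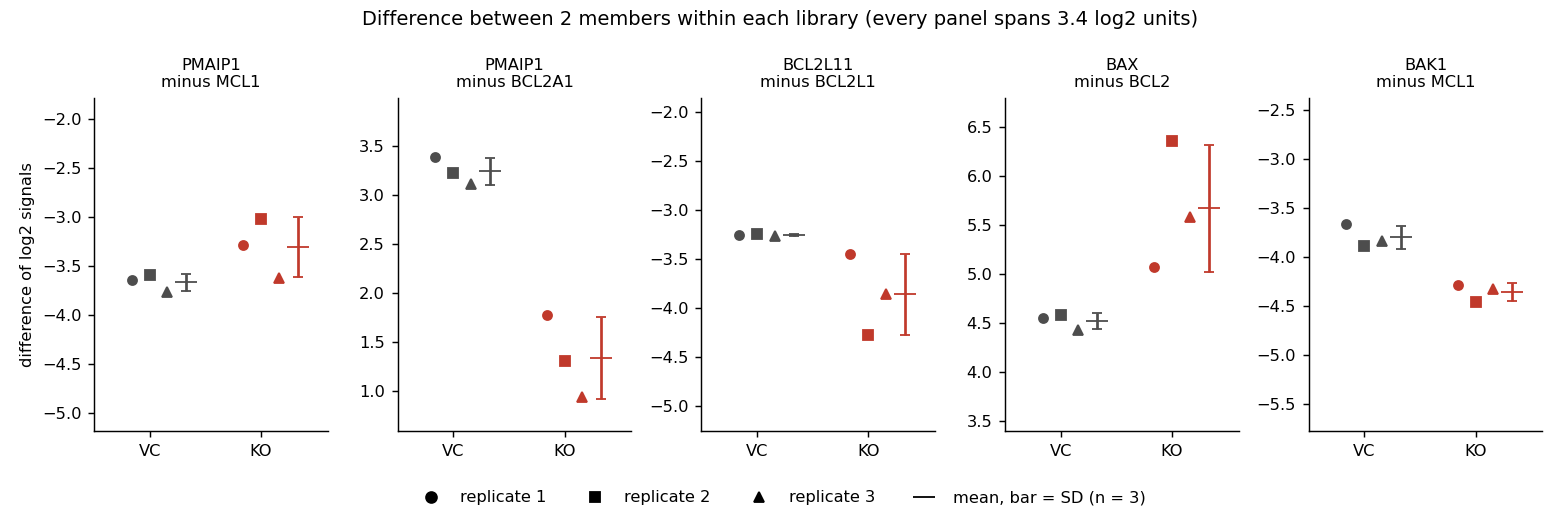
Difference of log2 signals between a pair of members (vertical axis) in each VC (gray) and KO (red) library, with the mean and SD (n = 3); every panel spans the same range. The groups are apart in 4 of the 5 pairs and overlap for PMAIP1 minus MCL1. How often other gene pairs are apart was not computed. Of single genes with a value in every library, 59.3% were apart.

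The profiles most like those of BCL2A1 and BCL2 over the 6 libraries were sought. The genes searched had a value in every library and a mean signal in the upper 50%. The measure was the root mean square distance between log2 signals centred on each gene's mean. BCL2A1 was in that upper 50% and BCL2 was not, so BCL2 was compared only with genes of higher mean signal. Nearest to BCL2A1 were RAB39B, a small GTPase (distance 0.12, log2 fold change 2.48), XBP1, a transcription factor of the unfolded protein response (0.15 and 2.47), and ROBO4, a guidance receptor known from endothelium (0.16 and 2.57). Nearest to BCL2 were CDKN2C, an inhibitor of cyclin-dependent kinases (distance 0.046, log2 fold change -1.25, not passing with a limma adjusted p of 0.0506), C9orf40 (0.054 and -1.37) and PDE3B, a phosphodiesterase (0.076 and -1.39). CDKN2C showed log2 signals of 2.82, 2.68 and 2.77 across VC replicates 1 to 3, against 2.15, 0.74 and 1.64 across KO replicates 1 to 3, the same order of libraries as BCL2 in KO.

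The genes that surround the family were grouped in 5 lists of 81 genes, of which 78 were tested. In all, 19 were higher and 13 lower in KO at an adjusted p under 0.05, with a median log2 fold change of -0.050. Over all tested genes the shares were 13.1% higher and 19.8% lower, and the median was -0.13. The counts were 9 higher and 1 lower without VC replicate 1 or without VC replicate 3, 12 and 4 without VC replicate 2, 22 and 24 without KO replicate 1, and 14 and 2 without KO replicate 3.

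Of 14 tested genes among the other BCL2 family and BH3 genes, 4 were higher and 0 lower in limma. Over all tested genes 13.1% were higher and 19.8% lower. At an unadjusted p under 0.05 in limma 5 were higher and 0 lower, against 17.8% and 30.0% of all tested genes. The median log2 fold change was 0.12. The mitophagy receptor BNIP3L was higher by 1.06 log2 units (adjusted p = 0.0305), and BMF, a BH3-only protein linked to the cytoskeleton, by 0.87 (adjusted p = 0.0157). BCL2L13, another mitochondrial family member, was higher by 0.69 (adjusted p = 0.00882) and BNIP1, a SNARE protein with a BH3 domain, by 0.52 (adjusted p = 0.0183). BCL2L13 passed whichever library was left out (highest adjusted p 0.0441). With any VC replicate left out BNIP3L, BMF and BNIP1 did not pass (highest adjusted p 0.09, 0.0606 and 0.0703), nor did BNIP3L without KO replicate 2, or BNIP3L and BMF without KO replicate 3.

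Downstream of the mitochondria, 3 of 21 tested genes were higher and 5 were lower, against 13.1% and 19.8% of all tested genes. The median was -0.18, against -0.13 over all tested genes. CYCS, the cytochrome c that BAX and BAK1 pores release, averaged 6.22 ± 0.092 in VC and 5.30 ± 0.15 in KO (SD, n = 3), a log2 fold change of -0.92 (adjusted p = 0.00942, highest with 1 library left out 0.0436). BIRC5 (survivin), which peaks in mitosis, had -0.76 (adjusted p = 0.0151), CASP2, an initiator caspase, -0.71 (adjusted p = 0.0436), and DFFA, the inhibitor of the caspase-activated nuclease, -0.45 (adjusted p = 0.0229). BIRC3, an inhibitor of apoptosis protein that NF-kB induces, averaged 0.39 ± 0.10 in VC and 3.21 ± 0.38 in KO (SD, n = 3), a log2 fold change of 2.81 (adjusted p = 0.00571, highest with 1 library left out 0.0348). Its relative BIRC2 had 0.36 (adjusted p = 0.0297) and CASP9, the caspase of the apoptosome, 0.58 (adjusted p = 0.0132). Without VC replicate 1 or without VC replicate 3, BIRC5, CASP2, DFFA, BIRC2 and CASP9 did not pass (highest adjusted p 0.0591, 0.116, 0.081, 0.101 and 0.0571). CASP2, DFFA and BIRC2 also failed without VC replicate 2, BIRC5, CASP2, DFFA and BIRC2 without KO replicate 3, and BIRC2 without KO replicate 2.

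In the death receptor list 3 of 10 genes were higher and 0 lower in limma, against 13.1% and 19.8% of all tested genes. At an unadjusted p under 0.05 in limma 4 were higher and 1 lower, against 17.8% and 30% of all tested genes. The median was 0.28. TNFRSF10B, the TRAIL receptor DR5, averaged 5.03 ± 0.0053 in VC and 6.0 ± 0.095 in KO (SD, n = 3), a log2 fold change of 0.97 (adjusted p = 0.00597, highest with 1 library left out 0.0372). TNFRSF10A, the other TRAIL death receptor, and CASP8, which cleaves BID, were each higher by 0.48 (adjusted p = 0.0129 and 0.0155), but neither passed without VC replicate 1 or without VC replicate 3 (highest adjusted p 0.0554 and 0.0643), and CASP8 also failed without KO replicate 3.

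Of 17 tested transcription regulators of the family, 9 were higher and 1 was lower, against 13.1% and 19.8% of all tested genes. The median was 0.30. DDIT3 (CHOP), the stress factor that activates BBC3 and TNFRSF10B, averaged 1.47 ± 0.10 in VC and 5.81 ± 0.46 in KO (SD, n = 3), a log2 fold change of 4.34 (adjusted p = 0.00478). TRIB3 (2.31, adjusted p = 0.00815), ATF3 (2.16, adjusted p = 0.0107), CEBPB (1.71, adjusted p = 0.00912) and ATF4 (1.34, adjusted p = 0.00815), factors of the same stress response, were also higher, and these 5 genes passed with every single library left out. E2F1, which drives S phase genes and can induce BH3-only genes, was lower (-1.07, adjusted p = 0.0182), and passed only without KO replicate 1 or KO replicate 2 when 1 library was left out (highest adjusted p 0.0656). The ubiquitin ligase gene MDM2 did not pass (-0.27, adjusted p = 0.0669).

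Of 16 kinases, ligases and adaptors that act on the proteins of the family, 0 were higher and 7 were lower in limma. Over all tested genes 13.1% were higher and 19.8% lower. At an unadjusted p under 0.05 in limma 2 were higher and 11 lower, against 17.8% and 30% of all tested genes. The median was -0.31. The 7 lower became 0 without VC replicate 1 or without VC replicate 3, 2 without VC replicate 2 and 1 without KO replicate 3. The log2 fold change was -0.62 for RPS6KA1, a kinase downstream of ERK (adjusted p = 0.0397), and -0.61 for GSK3B, which marks MCL1 for degradation (adjusted p = 0.0271). BTRC (-0.59, adjusted p = 0.0393) and FBXW7 (-0.58, adjusted p = 0.0196) are the ubiquitin ligase subunits that then recognize MCL1. These 4 genes are named because their changes were the largest of the 7. With 1 library left out these 4 genes passed only without KO replicate 1 or KO replicate 2 (highest adjusted p 0.113, 0.0838, 0.107 and 0.0702).

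**Figure D5:**
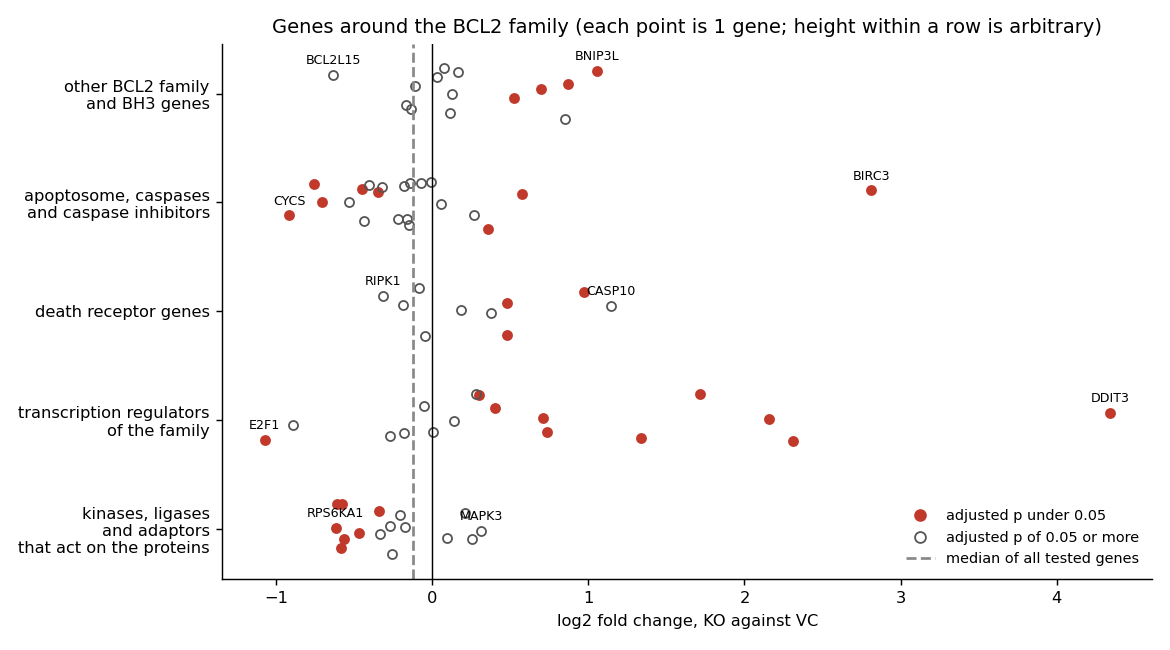
Log2 fold change of KO against VC (horizontal axis) for each tested gene of the 5 lists (rows), filled red where the adjusted p was under 0.05, with the lowest and highest gene of each list named. DDIT3 (4.34) and BIRC3 (2.81) stand farthest to the right, and E2F1 (-1.07) and CYCS (-0.92) farthest to the left.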

How the data were processed

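The 6 libraries were 3 VC and 3 KO samples of 143B cells, grouped and numbered by their titles. The authors deposited log2 signals per gene symbol, quantile-normalized between libraries. The methods name CLC Genomics Workbench and Partek, and the submitters' processing notes name CASAVA, STAR, Partek and build GRCh38.p13. The linear unit, annotation and read counts are not given in the sources used here, so no counting error was computed. An empty cell means no value.

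The 19306 genes that had 2 or 3 values in VC and in KO were tested without further normalization in limma 3.58.1 (R 4.3.3) with empirical Bayes moderation, two-sided, with Benjamini-Hochberg adjustment over all of them and a threshold of 0.05. The fit was tested on simulated data. Promoters came from the RefSeq table of GRCh38.p14. MARCHF5 is listed as MARCH5.

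The members, lists and tests were chosen with earlier results of these data known. Named genes are the members, CNTNAP4, up to 4 called genes per list and direction with the largest change, DDIT3, ATF4, MDM2, and the 3 profiles nearest to the called members with the largest rise and fall; 1 gene that this rule names is not reported here, and the cell type markers were named after their values were seen. Alternatives were the genes tested, median centring, 1 added to the linear signal, other variance moderation, a replicate block and leaving out each library.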

Additional observations from a re-analysis of the deposited data

How the results depend on the processing

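Every member kept its direction under all 13 alternatives, except that BCL2 and BCL2L11 were not tested among genes in the upper 50% of mean signal. BBC3 and BCL2A1 kept an adjusted p under 0.05 throughout, at most 0.0479 for each with a replicate block, and BCL2L1 never reached it. BAX reached 0.0415 with 1 added to the linear signal. BAK1 reached 0.0321 with 1 added, 0.0225 with trend and robust moderation and 0.0186 in the upper 50% of mean signal. Without variance moderation the adjusted p was 0.0812 for PMAIP1, 0.0621 for BCL2L11 and 0.0815 for BCL2. Same-numbered VC and KO libraries did not deviate together (r = 0.023, 0.0051 and -0.0074 over 17698 genes). With a replicate block the adjusted p was 0.0578 for PMAIP1, 0.0595 for BCL2L11, 0.057 for BID, 0.0671 for BCL2 and 0.108 for MCL1, with 2 members called higher and 0 lower and, among the surrounding genes, 8 higher and 1 lower.

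With single libraries left out the adjusted p ranged from 0.0408 to 0.129 for PMAIP1, 0.0143 to 0.092 for BCL2L11, 0.019 to 0.0784 for BID, 0.0122 to 0.107 for BCL2, 0.0314 to 0.124 for MCL1 and 0.0457 to 0.164 for BAK1. Members called higher then numbered 2 to 4 and lower 0 to 3. Surrounding genes called higher numbered 9 to 22 and lower 1 to 24. All tested genes called numbered from 1223 without VC replicate 3 to 8669 without KO replicate 1, against 6354 with all libraries. Members called lower numbered 4 with 1 added, 0 without moderation and 1 in the upper 50%. Surrounding genes called lower numbered 22 with 1 added, 21 with trend and robust moderation and 22 in the upper 50%.

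Adding 1 to the linear signal moved the median change over all tested genes from -0.13 to -0.023 on the log2 scale, and centring each library shifted it to -0.038 and the calls from 2526 higher and 3828 lower to 3141 higher and 3066 lower. The changes of the differences between members kept their direction with each library left out. Depth is unknown, so nothing is said of genes without a value.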
